A study of Bos taurus with 12 samples.

Results

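The change in gene expression between Day 7 blastocysts and Day 13 conceptuses of cattle was compared between embryos made in vitro and embryos made in vivo. For each probe set the compared quantity was the day effect of in vitro embryos, Day 13 minus Day 7, minus the day effect of in vivo embryos. It is called the difference of the day effect here, and it equals the gap between origins (in vitro minus in vivo) at Day 13 minus the gap at Day 7. All 12 of 12 arrays entered, 3 in each of 4 groups, and 24016 of the 24128 probe sets on the array, since the 112 control probe sets were left out. The in vitro embryos came from in vitro fertilization and the in vivo embryos from superovulated donors. Each Day 7 array measured a pool of 25 blastocysts, snap frozen on that day. Each Day 13 array measured a pool of 5 conceptuses, grown after transfer of 10 blastocysts into each synchronized recipient heifer, so that both Day 13 groups had shared a uterine environment and differed in the origin of the transferred blastocyst. RNA was extracted with Trizol and 75 ng of total RNA was labelled with biotin over a double amplification for an Affymetrix bovine array. Pools hide the variation between single embryos, the fate of blastocysts that were not recovered is not known from the labels, and nothing states that the pools came from separate donors, so that the p-values measure the spread between these pools.

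Between the blastocyst stage and the start of elongation the ruminant embryo turns from a small hollow sphere into an ovoid and then a tubular conceptus. Its trophectoderm, the outer layer that later forms the placenta, multiplies and secretes signals to the uterus, while the hypoblast spreads beneath it, lays down a basement membrane and forms the yolk sac. A gene can differ between origins at the blastocyst stage and lose that difference in the uterus, keep it, or first differ after transfer.

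The arrays carried embryo markers at both days. KRT8 (keratin of the trophectoderm) averaged between 8.59 and 9.31 on the log2 scale in the 4 groups and the endoderm factor gene GATA6 between 11.75 and 13.60. The conceptus protein gene TKDP1 averaged 14.55 ± 0.38 (SD, n = 3) in conceptuses of in vivo and 14.57 ± 0.41 in those of in vitro origin at Day 13, against 6.93 ± 1.55 and 6.40 ± 1.96 at Day 7. SOX2, a factor of the pluripotent inner cells, was at background on every Day 13 array, and GATA4 on every Day 7 array. Background was a log2 value of 3.39, set from control probe sets without added RNA, and between 41.3% and 42.0% of probe sets exceeded it on each array. NANOG, CDX2, GATA3 and SOX17 were not analysed here. In pooled whole embryos, fewer cells of a type and less RNA per cell cannot be told apart.

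Day 13 in vitro arrays stood apart in their controls. The poly-A spike-ins, bacterial transcripts added before labelling, averaged 9.27, 10.50 and 12.99 on Day 13 in vitro replicates 1, 2 and 3, and between 13.34 and 14.96 on the other 9 arrays. XIST, the RNA that coats an inactivated X chromosome, was also low on Day 13 in vitro replicates 1 and 3, as given with the X-linked genes. Without replicates 1 and 2 the number of calls went from 96 to 424, and without replicates 1 and 3 to 952. Each of these fits keeps 1 Day 13 in vitro array, which adds no spread of its own and is assumed to vary like the other groups. The number of calls went from 96 to 11 with the poly-A level as a covariate, and 10 of the 11 were among the 96. A sign of RNA quality, the log2 signal of the 3' minus the 5' GAPDH control probe sets, ran from 5.58 to 5.66 on Day 7 in vivo arrays and from 3.41 to 4.19 on Day 7 in vitro arrays, so that it moved with the Day 7 gap. At Day 13 it ran from 2.85 to 4.62 in vivo and from 2.53 to 4.17 in vitro. With it as a covariate 175 probe sets were called, 78 of them among the 96, and 27 of the 33 called genes described in the following kept their call, while BEX3, TIMP2, FMR1NB, HMGCS1, GSTM3 and VBP1 did not. The part of the other array differences in the results was not tested.

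The difference of the day effect passed the test at 96 of 24016 probe sets, which is 0.4% (limma, Benjamini-Hochberg adjusted p below 0.05, two-sided). It was above 0, relatively higher with time in in vitro embryos, at 35 (0.146%) and below 0 at 61 (0.254%). Without adjustment 2416 had p below 0.05. Among the 10591 probe sets above background on at least 3 arrays, 88 were called (0.831%), and the other 8 calls lay wholly at background and have no course. With 1 probe set per gene, 12 genes were called above 0 and 35 below 0 of 9155 (0.513% in both directions). Above 0 lay 36.5% of the calls, and 60.8% of 153 calls when each array was centred on its ribosomal protein genes, which moved the median of all probe sets from 0.0 to 0.45. Replicate 3 of Day 13 in vitro had the most weight on the count: without it 1083 probe sets were called, 63.2% of them above 0 and all 96 among them. The count was 147, 193 and 156 without replicate 1, 2 or 3 of Day 13 in vivo, and between 64 and 137 without any other single array.

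Courses with a larger gap at Day 13 were the most frequent kind, both among the called probe sets and among all those above background. Of the 88 called with a course, 60 (68.2%) diverged, meaning that the gap was larger at Day 13, and each of these had a Day 7 gap below 1 on the log2 scale. Another 19 (21.6%) converged, each with a Day 13 gap below 1. For 8 of these 19 both Day 13 groups lay wholly at background, where no gap can be measured. The other 9 (10.2%) crossed, with gaps of at least 1 in opposite directions, and in all 9 the in vitro level was the higher one at Day 7 and the lower one at Day 13. Over all 10591 probe sets above background the shares were 61.9% diverged, 36.3% converged and 1.81% crossed. The diverged share of the calls was thus close to that of all probe sets. These classes rest on the same values as the calls and have no test of their own. Origins did not overlap at Day 13 for 76 of the 88 (86.4%, against 29.8% of all 10591) and at Day 7 for 38 (43.2%, against 18.6%), and the calls were chosen on these same values.

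By the day effects of the called probe sets, 36 of 88 changed by at least 1 in in vitro embryos alone (22 above 0, 14 below 0) and 25 in in vivo embryos alone (4 above 0, 21 below 0). Both origins changed in opposite directions at 7, all below 0. Both changed in the same direction at 13, more strongly in vitro at 9 and more strongly in vivo at 4, and 7 changed by less than 1 in either. As shares of the 88, in vitro alone made up 40.9%, in vivo alone 28.4%, opposite directions 7.95% and neither 7.95%. Over all 10591 probe sets the same shares were 21.7%, 10.7%, 1.25% and 52.9%. For 32 of the 60 diverged probe sets both Day 7 groups lay wholly at background. Of these, 12 came above background in Day 13 in vitro conceptuses alone and 13 in Day 13 in vivo conceptuses alone.

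**Figure D1:**
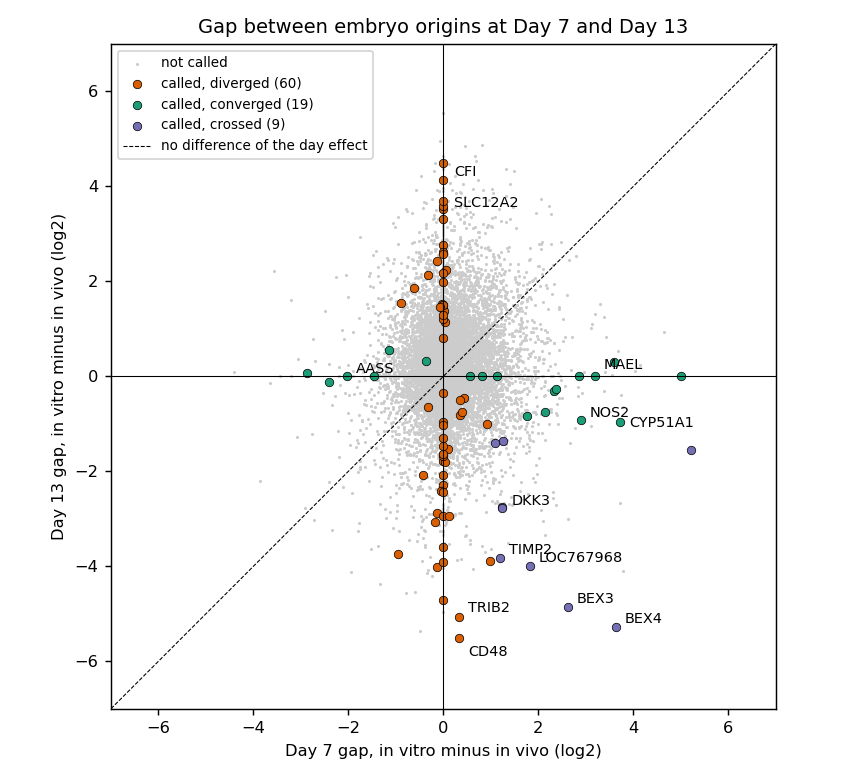
Gap between origins (in vitro minus in vivo, log2) at Day 7 on the horizontal axis and at Day 13 on the vertical axis, 1 point per probe set above background, with groups wholly at background set to 3.39. Called probe sets are coloured by course: the 60 diverged lie along the vertical axis, the 19 converged along the horizontal axis, and the 9 crossed in the lower right field.

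The gap between origins was larger at Day 13 for 63.0% of the 10591 probe sets. Its median size was 0.336 at Day 7 and 0.563 at Day 13, and it reached 1 at 12.8% and 28.9% of probe sets. Across probe sets, which are not independent, the gaps of the 2 days correlated at r = 0.06. The root mean square difference between single arrays of different origin had a median of 0.956 (0.742 to 1.14) over 9 pairs at Day 7 and 1.36 (0.859 to 1.75) at Day 13. Within an origin it was 0.856 in vivo and 0.692 in vitro at Day 7, and 1.10 and 0.937 at Day 13. The larger distance at Day 13 rested on Day 13 in vitro replicates 1 and 2: the difference of the medians was 0.401 with all arrays and -0.0736 without both. Replicate 3 differed from Day 13 in vivo replicates 1, 2 and 3 by 0.882, 1.28 and 0.859 and from its own replicates 1 and 2 by 1.11 and 0.937.

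Genes whose courses crossed were led by BEX4 and BEX3, X-linked genes of a family of small adaptor proteins. BEX4 measured 3.26, 3.59 and 3.70 in Day 7 in vivo blastocysts and 7.74, 5.94 and 7.77 in Day 7 in vitro blastocysts. At Day 13 it measured 9.0, 10.33 and 9.10 in conceptuses of in vivo origin and 3.26, 3.92 and 5.43 in those of in vitro origin. The 2 origins did not overlap at either day, and their order was exchanged. The Day 7 gap was 12.4-fold with in vitro higher, the Day 13 gap 38.7-fold with in vivo higher, and the difference of the day effect was -8.90 ± 0.97 (log2 ± SE, limma adjusted p = 0.00833). The call held without each single array, with an adjusted p of at most 0.027, and became 0.0744 with the poly-A covariate.

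BEX3 ran alongside. Its values were 2.91, 5.24 and 5.90 at Day 7 in vivo, 7.48, 6.56 and 7.87 at Day 7 in vitro, 10.21, 10.96 and 10.67 at Day 13 in vivo, and 5.21, 5.14 and 6.93 at Day 13 in vitro, again without overlap at either day. The difference was -7.48 ± 1.14 (limma adjusted p = 0.045). This call withstood only the removal of replicate 1 of Day 7 in vivo, replicate 3 of Day 7 in vivo or replicate 3 of Day 13 in vitro, and the adjusted p rose to as much as 0.118 without another array. LOC767968, a gene for which RefSeq gives the synonyms BEX1 and BEX2 and which was chosen after its values were seen, measured 8.94, 8.09 and 7.38, then 9.59, 9.80 and 10.47 at Day 7 in vivo and in vitro, and 12.32, 12.34 and 12.84, then 7.93, 8.46 and 9.13 at Day 13. Its difference was -5.81 ± 0.63 (limma adjusted p = 0.00833).

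Of 8 measured genes on a list of BEX and TCEAL genes, 0 were called above 0 and 2 below 0, against 35 below 0 of 9155 genes (0.382%). TCEAL genes encode relatives of a transcription elongation factor and sit among the BEX genes on chromosome X. The 6 list members above background had a median difference of -2.70, against -0.03 over the 5803 genes above background, and 5 of the 6 were below 0. TCEAL4 differed by -3.14 ± 0.88 (adjusted p = 0.237), TCEAL8 by -2.26 ± 0.44 (adjusted p = 0.088) and BEX5 by -1.34 ± 0.45 (adjusted p = 0.334), while ARMCX3 differed by 0.91 ± 0.64 (adjusted p = 0.733), all by limma. In the RefSeq gene order TCEAL8 and LOC768028 lie between BEX3 and BEX4, with TCEAL9, TCEAL7 and LOC104970008, which were not measured. LOC768028, which was chosen after its values were seen, differed by -3.76 ± 0.92 (limma adjusted p = 0.184). Its gap of 1.08 at Day 7 became -2.67 at Day 13.

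Other crossed genes act outside the cell. DKK3, a secreted protein of a family of WNT antagonists, measured 4.86, 4.45 and 4.60 for Day 7 in vitro and 6.56, 5.28 and 6.67 in Day 13 in vivo pools. It was at background on all arrays of the other groups, between 2.27 and 3.10. It was thus at least 2.37-fold higher in vitro at Day 7 and at least 6.87-fold higher in vivo at Day 13, with a fitted difference of -5.51 ± 0.58 (limma adjusted p = 0.00671). TIMP2, a secreted inhibitor of matrix-degrading metalloproteinases, stayed level in vivo, at 9.45, 8.96 and 10.35 at Day 7 and 8.95, 10.37 and 8.77 at Day 13. In vitro it went from 10.82, 10.35 and 11.18 to 5.36, 5.25 and 6.01, so that the origins touched at Day 7 and lay clearly apart at Day 13. The difference was -5.02 ± 0.72 (limma adjusted p = 0.0324). It lost its call without replicate 1 or 2 of Day 7 in vivo, replicate 1 or 3 of Day 7 in vitro or replicate 1 or 2 of Day 13 in vitro, with an adjusted p of up to 0.0937, and a second TIMP2 probe set near background differed by -0.80 (adjusted p = 0.471).

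**Figure D2:**
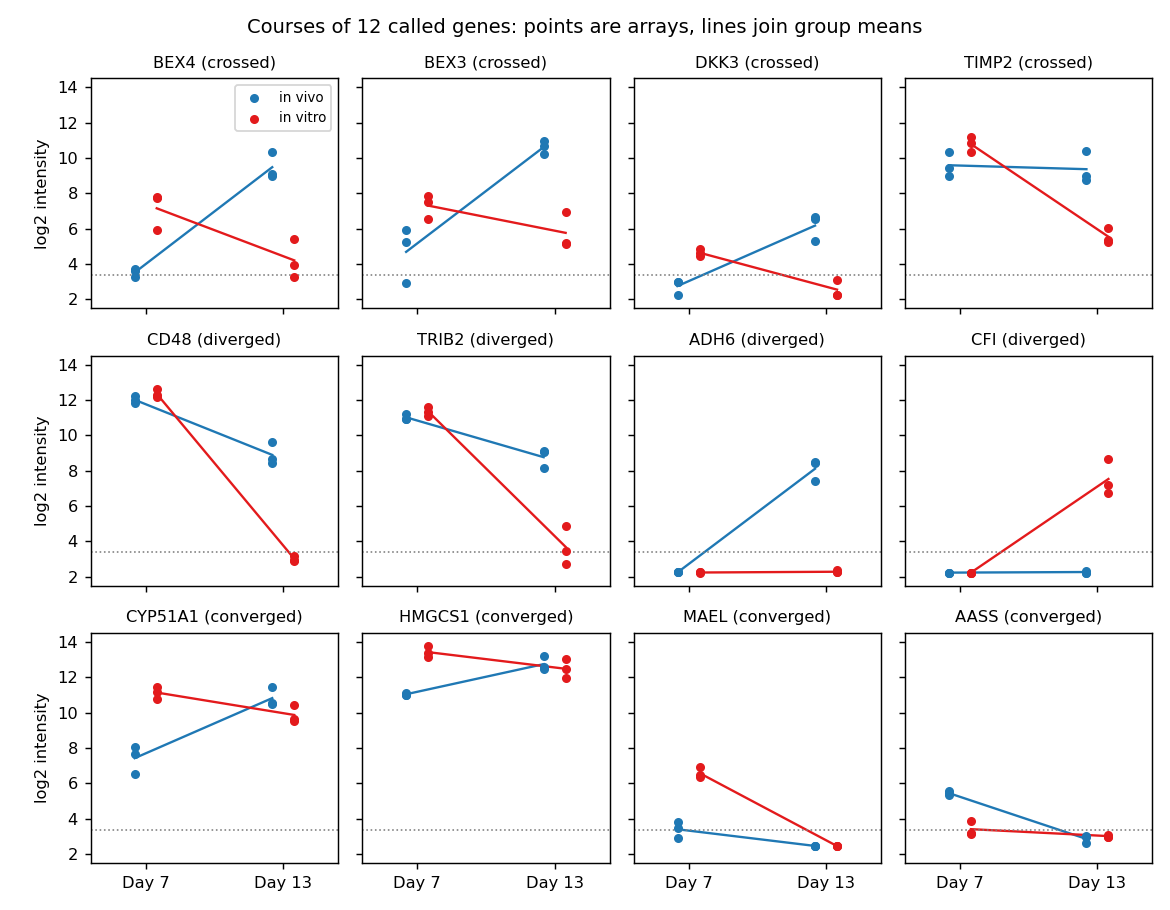
Log2 intensity of 12 called genes at Day 7 and Day 13 in in vivo (blue) and in vitro (red) embryos. Points are arrays, lines join group means and the dotted line is the background of 3.39. The top row crosses and the middle row parts from a common Day 7 level. In the bottom row the gap is smaller at Day 13, where the origins of CYP51A1 still did not overlap and MAEL and AASS lay at background in both origins.

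CD48, a membrane protein best known from lymphocytes, parted from a common start by falling further in vitro. Day 7 values were 11.84, 11.99 and 12.20 in vivo and 12.27, 12.16 and 12.62 in vitro. At Day 13 it measured 8.41, 9.60 and 8.67 in conceptuses of in vivo origin and was at background in those of in vitro origin, at 2.91, 3.17 and 2.97. It was at least 45.3-fold higher in the in vivo conceptuses, and the fitted difference was -6.21 ± 0.40 (limma adjusted p = 0.000902). TRIB2, a pseudokinase that guides proteins to degradation, went from 11.21, 10.94 and 10.91 in vivo and 11.63, 11.31 and 11.12 in vitro at Day 7 to 8.15, 9.10 and 9.04 in vivo and 3.47, 2.70 and 4.89 in vitro at Day 13. Its difference was -5.41 ± 0.72 (limma adjusted p = 0.0219). The call was lost without replicate 2 or 3 of Day 7 in vivo, replicate 1 or 3 of Day 7 in vitro or replicate 1 of Day 13 in vitro, with an adjusted p of up to 0.0731. A second and dimmer TRIB2 probe set differed by 0.93 ± 1.05 (adjusted p = 0.756), so the probe sets of TRIB2 disagreed in direction.

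PHC1, a subunit of the Polycomb repressive complex that was chosen after its values were seen, was level in 3 groups and low in the fourth. It measured 8.68, 8.89 and 8.07 for Day 7 in vivo, 8.56, 8.12 and 8.46 for Day 7 in vitro, 8.32, 8.49 and 8.30 for Day 13 in vivo, and 5.21, 5.47 and 5.21 for Day 13 in vitro pools. The difference was -2.90 ± 0.29 (limma adjusted p = 0.0056).

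A second kind of divergence was a gene that came up in vivo alone. ADH6, an alcohol dehydrogenase, lay between 2.23 and 2.36 on every Day 7 and Day 13 in vitro array, which is background. It measured 7.44, 8.41 and 8.48 in Day 13 in vivo conceptuses, at least 26.3-fold higher than in those of in vitro origin, with a fitted difference of -5.83 ± 0.33 (limma adjusted p = 0.000512). ANXA13, a calcium-dependent membrane-binding protein, measured 6.96, 7.58 and 6.38 there and was at background elsewhere (at least 12-fold, limma adjusted p = 0.00474). EGFLAM, a matrix protein chosen after its values were seen, measured 5.79, 5.28 and 5.35 there and 2.23 on each other array (at least 4.24-fold, limma adjusted p = 0.000186). The transketolase-like gene TKTL1, also chosen after its values were seen, measured 5.86, 5.23 and 6.34 there, between 3.20 and 3.57 in Day 7 in vitro blastocysts and background in the remaining groups (at least 5.34-fold at Day 13, limma adjusted p = 0.00386). These 4 calls held without each single array. EGFLAM had an SD of 0.0 in each group at background and of 0.274 in Day 13 in vivo pools. Its pooled spread thus came from the Day 13 in vivo pools alone, and its p-value can be too small.

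RASSF5, a RAS-binding protein, rose from a shared level: it measured between 6.24 and 6.54 on all Day 7 arrays, 8.5, 9.02 and 9.86 for Day 13 in vivo and 5.82, 6.04 and 6.72 for Day 13 in vitro pools. The difference of -3.05 ± 0.48 had a limma adjusted p of 0.0472, and the call withstood only the removal of replicate 1 or 3 of Day 13 in vivo or replicate 3 of Day 13 in vitro (up to 0.118 otherwise). GSTM3, a glutathione transferase, measured 4.23, 5.82 and 5.03 in Day 13 in vivo conceptuses and background elsewhere (at least 3.12-fold, limma adjusted p = 0.0488), a call that withstood only the removal of replicate 1 or 2 of Day 13 in vivo or replicate 3 of Day 13 in vitro (up to 0.124 otherwise).

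The opposite divergence was a gene that came up in vitro alone. CFI, a protease that inactivates complement, measured 7.18, 8.68 and 6.73 in Day 13 in vitro conceptuses and between 2.23 and 2.33 on the other 9 arrays. It was at least 17.6-fold higher than in Day 13 in vivo conceptuses, with a fitted difference of 5.26 ± 0.58 (limma adjusted p = 0.00833). SLC12A2, the sodium, potassium and chloride cotransporter of secretory epithelia, was at background on all Day 7 arrays, measured 4.0, 3.35 and 3.52 for Day 13 in vivo and 7.82, 7.24 and 6.88 for Day 13 in vitro pools. The fitted difference was 3.26 ± 0.39 (limma adjusted p = 0.0125), and a second SLC12A2 probe set was called as well, at 2.44 ± 0.36 (adjusted p = 0.0369). CD69, an early activation marker of lymphocytes, measured 5.03, 4.92 and 4.07 there and background elsewhere (at least 2.44-fold, limma adjusted p = 0.0202), a call lost without replicate 1 or 3 of Day 7 in vitro (up to 0.0686). OSR2, a zinc finger transcription factor, measured 4.01, 4.59 and 3.99 there and 2.23 elsewhere (at least 1.75-fold, limma adjusted p = 0.00528). With values raised to background OSR2 and CD69 were not called (limma adjusted p = 0.21 and 0.184).

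Further genes rose with time in vitro and were highest in Day 13 in vitro conceptuses. ABHD6, a lipase of monoacylglycerols, lay between 7.42 and 7.66 on the 9 other arrays and at 9.09, 8.75 and 8.88 in Day 13 in vitro conceptuses, a difference of 1.35 ± 0.12 (limma adjusted p = 0.0036). The helicase gene DHX32 lay between 6.47 and 7.09 on those 9 arrays and at 8.71, 8.44 and 8.40 (1.54 ± 0.18, limma adjusted p = 0.0112). TMEM106C measured 10.48, 9.53 and 9.25 against at most 7.24 elsewhere (2.58 ± 0.40, limma adjusted p = 0.0466), and the mitochondrial methionyl-tRNA synthetase gene MARS2 measured 6.81, 6.36 and 5.75 against at most 5.36 elsewhere (2.49 ± 0.37, limma adjusted p = 0.0378). The origins were already apart for MARS2 at Day 7, at 5.36, 5.05 and 4.78 in vivo and 4.25, 4.40 and 4.67 in vitro. TMEM38B, an intracellular cation channel, measured 7.01, 5.42 and 5.59 and background elsewhere (at least 6.12-fold, limma adjusted p = 0.0393). The calls of TMEM106C, MARS2 and TMEM38B were each lost without most single arrays, with an adjusted p of up to 0.103. TMEM106C kept its call without replicate 1 or 3 of Day 13 in vitro, MARS2 without replicate 3 of Day 7 in vivo or replicate 1 or 3 of Day 13 in vitro, and TMEM38B without replicate 1, 2 or 3 of Day 13 in vitro.

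CD48 and CD69 belong to a list of blood and leukocyte markers, and no other gene of that list was called. On all arrays 22 of its 33 measured members were at background, among them PTPRC, CD3E, CD14, MS4A1 and HBA. The log2 of the summed list level ran from 12.63 to 12.83 in Day 7 in vivo, from 12.73 to 13.01 in Day 7 in vitro, from 9.32 to 10.01 in Day 13 in vivo and from 7.87 to 8.08 for Day 13 in vitro pools. The sum includes CD48, which alone measured between 11.84 and 12.62 at Day 7 and between 8.41 and 9.60 for Day 13 in vivo. The sum is thus not a level of the whole list. The mean of the 9 members above background was 6.84 ± 0.11 for Day 7 in vivo and 6.39 ± 0.20 for Day 7 in vitro (SD, n = 3). At Day 13 this mean was 4.27 ± 0.26 in vivo and 3.65 ± 0.12 in vitro. FCGR2B, an antibody receptor on the same list, differed by 3.51 ± 0.57 and missed the threshold (limma adjusted p = 0.0513). Its level went from 9.95 ± 0.20 in vivo and 6.30 ± 0.81 in vitro at Day 7 (SD, n = 3) to 3.72 ± 0.48 and 3.58 ± 0.30 at Day 13. Of 19 uterine markers 12 were at background on all arrays, among them SERPINA14, PGR and ESR1. The summed uterine level ran from 8.01 to 8.48 in Day 13 in vivo, against 7.14 to 7.37 for Day 13 in vitro pools. This sum includes SPP1, which alone measured 7.62, 5.75 and 6.82 in Day 13 in vivo and 2.23, 2.25 and 4.79 in Day 13 in vitro pools. Of the 4 uterine markers above background 2 differed above 0 and 2 below 0, with a median of -0.05, and 0 were called. The part of uterine cells in the genes higher in Day 13 in vivo pools was not tested. Of 16 cumulus markers 9 were at background on all arrays and 0 were called.

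Several of the converging genes encode enzymes of cholesterol synthesis, the pathway from acetyl units through squalene to sterols. CYP51A1, which removes a methyl group from lanosterol, measured 6.54, 8.07 and 7.68 for Day 7 in vivo and 11.20, 11.48 and 10.75 in Day 7 in vitro blastocysts. At Day 13 it measured 11.43, 10.53 and 10.52 in vivo and 9.52, 9.64 and 10.46 in vitro. A 13.1-fold gap at Day 7 thus became a 1.93-fold gap in the other direction, with a difference of -4.67 ± 0.64 (limma adjusted p = 0.0274). The call was lost without replicate 1, 2 or 3 of Day 7 in vitro or replicate 1 or 2 of Day 13 in vitro (adjusted p up to 0.0822).

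HMGCS1, which makes the HMG-CoA of the pathway, went from 11.05 ± 0.08 (SD, n = 3) in vivo and 13.76, 13.40 and 13.13 in vitro at Day 7 to 12.56, 13.20 and 12.49 in vivo and 12.45, 11.98 and 13.03 in vitro at Day 13. FDFT1, the squalene synthase, went from 8.23, 8.73 and 8.38 in vivo and 10.72, 11.13 and 10.50 in vitro to 9.78, 8.96 and 9.32 in vivo and 9.13, 8.53 and 9.45 in vitro. For both genes the origins were apart at Day 7 and overlapped at Day 13. The differences were -2.64 ± 0.41 and -2.65 ± 0.42, close to the threshold (limma adjusted p = 0.0476 and 0.0488). Each call withstood only the removal of replicate 2 of Day 13 in vivo or replicate 3 of Day 13 in vitro, with adjusted p up to 0.119 and 0.118 otherwise.

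On the cholesterol synthesis list 3 of 17 measured genes were called, all below 0, against 35 below 0 of 9155 genes (0.382%). All 14 members above background had a difference below 0, with a median of -2.24 that stayed between -2.60 and -1.79 over the alternatives, ribosomal centring included. By course 11 of the 14 converged (78.6%, against 36.6% of all genes above background), 1 crossed and 2 diverged. At Day 7, 12 of the 14 had a gap of at least 1, and at Day 13 only DHCR7 and INSIG1 did. The mean of the 14 was 7.98 ± 0.04 (SD, n = 3) for Day 7 in vivo, 9.95 ± 0.17 for Day 7 in vitro, 9.52 ± 0.35 for Day 13 in vivo and 9.21 ± 0.15 for Day 13 in vitro pools. Among those not called were SQLE at -3.21 ± 0.52 (limma adjusted p = 0.0532), DHCR7 at -3.27 ± 0.63 (0.0878), MSMO1 at -1.75 ± 0.35 (0.0945) and FDPS at -3.69 ± 0.82 (0.144). MVK and MVD, enzymes of the early mevalonate steps, differed by -0.10 and -0.08.

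A pair of germline genes was classed as converged because both lay at background in both origins at Day 13, where no gap can be measured. MAEL, a protein of the pathway that silences transposons in germ cells, measured 6.47, 6.93 and 6.35 in Day 7 in vitro blastocysts against 2.91, 3.47 and 3.83 in vivo, and was at background on all 6 Day 13 arrays. Its difference was -3.19 ± 0.32 (limma adjusted p = 0.00528), and the call held without each single array. FMR1NB, a cancer-testis antigen, measured 6.56, 5.12 and 7.08 in Day 7 in vitro blastocysts and background in the other groups, and was at least 7.27-fold higher there than in vivo. Its call (limma adjusted p = 0.0471) withstood only the removal of replicate 2 of Day 7 in vitro or replicate 3 of Day 13 in vitro (up to 0.118 otherwise). They were the 2 called of 12 measured germline and oocyte genes, both below 0, against 0.382% of all genes called below 0. Of the 12, 8 did not exceed background on 3 arrays and have no course. Of the other 4, 3 converged (75%, against 36.6% of all genes above background) and 1, OOEP, crossed.

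NOS2, the inducible nitric oxide synthase, also converged. It measured 5.02, 5.58 and 5.07 for Day 7 in vivo, 7.89, 8.82 and 7.62 for Day 7 in vitro, 5.02, 4.32 and 5.03 for Day 13 in vivo and 3.63, 3.63 and 4.33 for Day 13 in vitro pools. The 7.41-fold gap of Day 7 became 1.90-fold the other way (difference -3.82 ± 0.51, limma adjusted p = 0.0237). Without replicate 1 or 3 of Day 7 in vivo, replicate 1 of Day 7 in vitro or replicate 1 or 2 of Day 13 in vitro it missed the threshold, with an adjusted p of up to 0.07. In the other direction AASS, the first enzyme of lysine breakdown, measured 5.32, 5.55 and 5.48 in vivo and 3.21, 3.86 and 3.16 in vitro at Day 7 and was at background at Day 13, a difference of 2.20 ± 0.26 (limma adjusted p = 0.0129).

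Of 40 measured genes of basement membrane and matrix 1 was called, TIMP2 below 0, against 0.382% of all genes called below 0. The 25 members above background had a median difference of -1.62, and 20 of them were below 0. The median was -0.79 with the poly-A covariate and between -2.06 and -1.17 under the other alternatives. Their median gap was 0.17 at Day 7 and -1.39 at Day 13. The mean of the 25 was 8.05, 8.03 and 7.96 on the Day 7 in vivo arrays and 8.45, 8.40 and 8.33 on the Day 7 in vitro arrays. At Day 13 it was 8.89, 8.92 and 8.89 in vivo and 7.33, 7.67 and 7.84 in vitro, so that the origins were apart at both days and in opposite order. The mean of all 5803 genes above background was also apart at Day 7, at 7.76, 7.87 and 7.96 in vivo and 8.14, 7.99 and 8.09 in vitro, and overlapped at Day 13, at 7.80, 8.06 and 7.90 in vivo and 8.17, 8.09 and 7.98 in vitro. Single genes not called included the nidogen gene NID2 at -2.56 ± 0.44 (limma adjusted p = 0.0638), the collagen lysyl hydroxylase gene PLOD2 at -3.18 ± 0.55 (0.0638) and the laminin gene LAMB1 at -2.73 ± 0.49 (0.0719). NID2 and PLOD2 converged, with Day 7 gaps of 2.69 and 3.15 and Day 13 gaps of 0.12 and -0.03, while LAMB1 crossed, from 1.31 to -1.42. A second and dimmer PLOD2 probe set diverged, with a difference of 3.04 ± 0.96 (limma adjusted p = 0.3), so the probe sets of PLOD2 disagreed in direction.

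Hypoblast and yolk sac genes had 0 of 28 called and a median difference of -0.86 over 18 above background, 14 of them below 0. The apolipoprotein gene APOA2, at background at Day 7, averaged 8.20 ± 1.74 for Day 13 in vivo and 3.23 ± 1.33 for Day 13 in vitro pools (SD, n = 3, limma adjusted p = 0.19). Trophoblast genes had 0 called as well. Of 16 identity genes 9 were above 0 and 7 below 0, with a median of 0.29 (0.13 to 0.74 over the alternatives). Of 8 secreted products 6 were above 0, and their median of 1.19 fell to 0.76 without Day 13 in vitro replicate 2 and to 0.33 without replicates 1 and 2. The pregnancy-associated glycoprotein gene PAG11 averaged 6.12 ± 2.42 and 11.68 ± 1.56 in Day 13 in vivo and in vitro pools from background at Day 7 (limma adjusted p = 0.252). The interferon tau gene IFNT2, the pregnancy signal of ruminants, differed by 2.91 ± 1.19 (adjusted p = 0.454). For POU5F1, a factor of pluripotent cells, the gap of 1.46 at Day 7 became -2.71 at Day 13, with a difference of -4.16 ± 1.08 (limma adjusted p = 0.204). Its list of pluripotency and epiblast genes went the other way by its median and had 0 of 6 measured genes called. Of the 5 members above background 3 were above 0 and 2 below 0, with a median of 0.98 (0.52 to 1.47 over the alternatives).

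**Figure D3:**
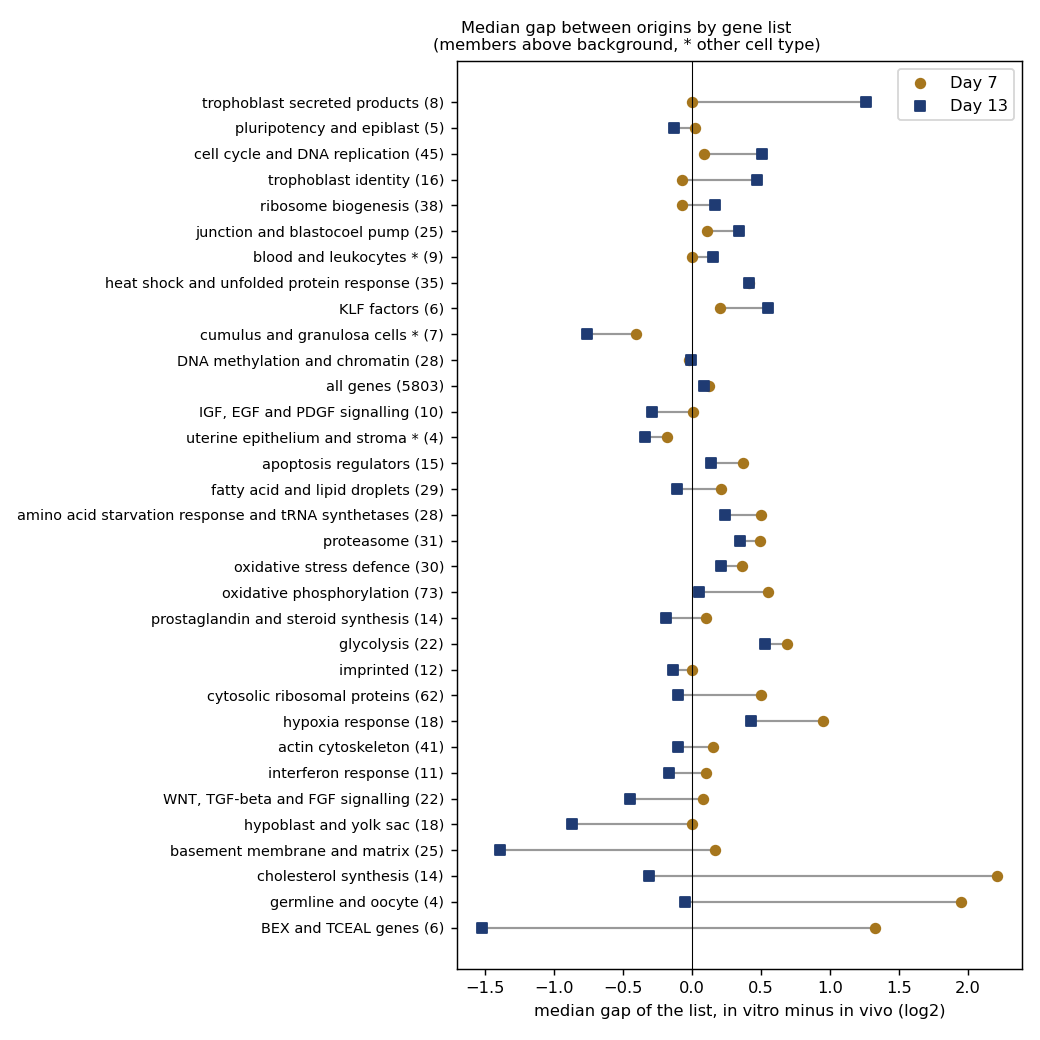
Median gap between origins (in vitro minus in vivo, log2) of each gene list at Day 7 (circles) and Day 13 (squares), over members above background, whose number is in brackets, with groups wholly at background set to 3.39. Cholesterol synthesis moved from 2.21 to -0.31, BEX and TCEAL genes from 1.33 to -1.52 and basement membrane from 0.17 to -1.39, against 0.12 and 0.09 for all genes.

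Lists of general cell functions held few calls. The 62 ribosomal protein genes had a median difference of -0.56 with 60 below 0 and 0 called, and this became -0.11 when arrays were centred on the same genes. For 73 oxidative phosphorylation genes the median of -0.40 turned to 0.05 under that centring. The same centring moved the median of all genes above background from -0.03 to 0.42, so that both lists stayed below all genes. Cell cycle genes had 0 called and a median of 0.42 over 45, which was 0.24 without Day 13 in vitro replicate 1 and 0.0 both with the poly-A covariate and without replicates 1 and 2. The oxidative stress list had 2 called below 0 of 35, GSTM3 and the peroxiredoxin gene PRDX4, against 0.382% of all genes. Both missed the threshold with values raised to background (limma adjusted p = 0.261 and 0.0595). PRDX4 moved little in size: it was 11.79, 11.56 and 11.85 in vivo and 12.18, 12.01 and 12.04 in vitro at Day 7, and 11.75, 11.56 and 11.78 in vivo and 11.11, 11.17 and 11.30 in vitro at Day 13. The difference of -0.85 ± 0.14 (limma adjusted p = 0.0488) kept its call only after removal of replicate 3 of Day 7 in vivo, replicate 2 of Day 13 in vivo or replicate 3 of Day 13 in vitro (up to 0.125 otherwise). The imprinted gene DLK1 was called at -0.33 ± 0.04 (limma adjusted p = 0.0112) with every array between 2.29 and 2.73, which is background.

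PAPOLA, the nuclear poly-A polymerase, had a gap of like size at both days. It averaged 6.95 ± 0.20 and 8.08 ± 0.09 at Day 7 and 7.32 ± 0.13 and 8.41 ± 0.13 at Day 13 in vivo and in vitro (SD, n = 3), so that the gap was 1.12 and then 1.09. Its difference of -0.03 ± 0.16 (limma adjusted p = 1.0) was small beside either gap. The NODAL co-receptor gene CRIPTO was higher in vivo at both days, by at least 8.46-fold at Day 7 and by 2.44-fold at Day 13, and the difference missed the threshold (limma adjusted p = 0.0647).

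The X chromosome held a share of the calls that was noticed after the values were seen and is given as a description. Of 396 probe sets with 1 symbol placed on X in the RefSeq assembly ARS-UCD2.0, 7 were called (1.77%), all below 0: BEX4, BEX3, LOC767968, FMR1NB, TKTL1, PRDX4 and VBP1. Of 12851 autosomal probe sets 46 were called, 31 of them below 0 (0.241%). VBP1, a subunit of the prefoldin chaperone, showed the same small exchange as PRDX4, with 11.56, 11.70 and 11.82 against 12.26, 11.95 and 12.16 at Day 7 and 11.59, 11.51 and 11.68 against 11.10, 11.22 and 11.10 at Day 13 in vivo and in vitro (-0.88 ± 0.13, limma adjusted p = 0.039). Its call was lost without any of 8 single arrays and held without replicate 3 of Day 7 in vivo, replicate 2 of Day 7 in vitro, replicate 2 of Day 13 in vivo or replicate 3 of Day 13 in vitro (up to 0.103 otherwise).

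The median difference over 217 X-linked probe sets above background was -0.49, with 67.3% below 0, while the 29 autosomes had medians from -0.25 to 0.33. Under ribosomal centring the X median was -0.04 and the autosomal median 0.47, and without Day 13 in vitro replicates 1 and 3 the values were -0.33 and 0.01. On each array the mean of X-linked minus autosomal probe sets was -0.15, -0.27 and -0.27 for Day 7 in vivo and 0.03, -0.10 and -0.02 in Day 7 in vitro blastocysts. It was 0.11, 0.07 and 0.18 in Day 13 in vivo and -0.37, -0.19 and -0.49 in Day 13 in vitro conceptuses. By this mean the origins did not overlap at either day and their order was exchanged. By the median in place of the mean they overlapped at Day 7, with -0.08, -0.59 and -0.29 in vivo and -0.04, -0.19 and -0.08 in vitro, and not at Day 13.

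The brightest XIST probe set measured 10.79, 11.35 and 10.85 for Day 7 in vivo, 9.81, 9.46 and 9.74 for Day 7 in vitro and 9.82, 9.56 and 9.78 in Day 13 in vivo pools. On Day 13 in vitro replicates 1, 2 and 3 it measured 4.28, 9.52 and 2.23, and the other 2 XIST probe sets were low on the same replicates. ZFY, a Y-linked gene, was at background on all arrays. The difference of the day effect of XIST was -3.05 ± 2.13 (limma adjusted p = 0.733). In replicate 2, where XIST was present, BEX4 measured 3.92, BEX3 5.14 and LOC767968 8.46, each below every Day 13 in vivo array. From replicate 2 as the only Day 13 in vitro array, the difference was -9.18 for BEX4 and -8.10 for BEX3. From replicate 3 as the only one, where XIST was low, it was -7.68 for BEX4 and -6.31 for BEX3. The sex of the pooled embryos is not given in the labels, and its part in the X-linked differences was not tested.

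**Figure D4:**
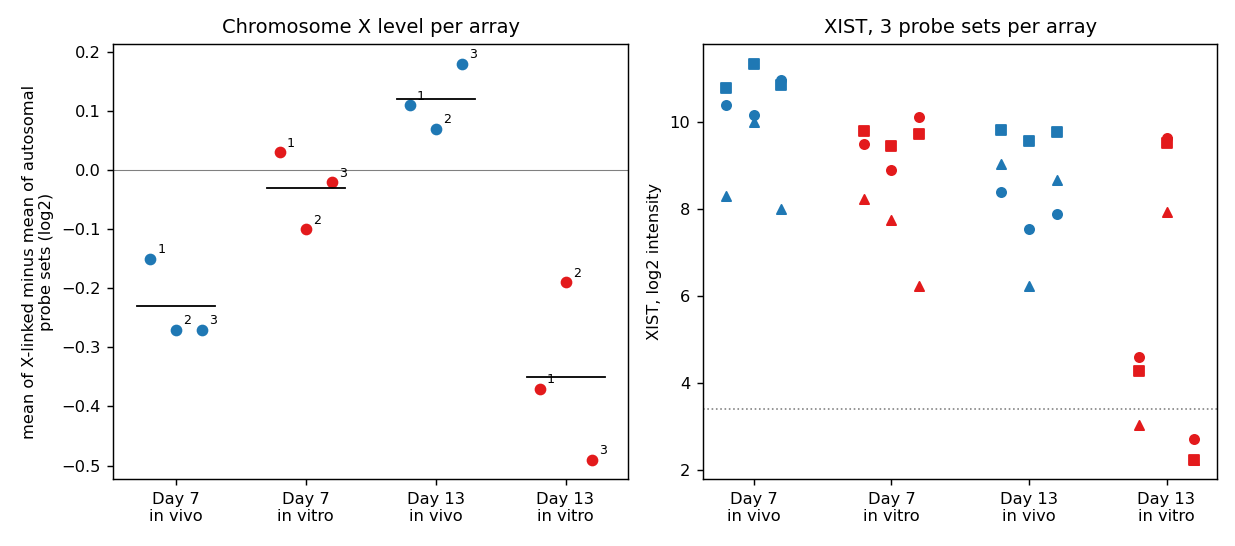
Left, mean log2 level of 217 X-linked minus 6619 autosomal probe sets on each array, with replicate numbers and a line at the group mean. Right, log2 intensity of 3 XIST probe sets (1 marker shape each) with the background dotted: Day 13 in vitro replicates 1 and 3 lie at or near background, and the X level is lowest in that group.

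**Figure D5:**
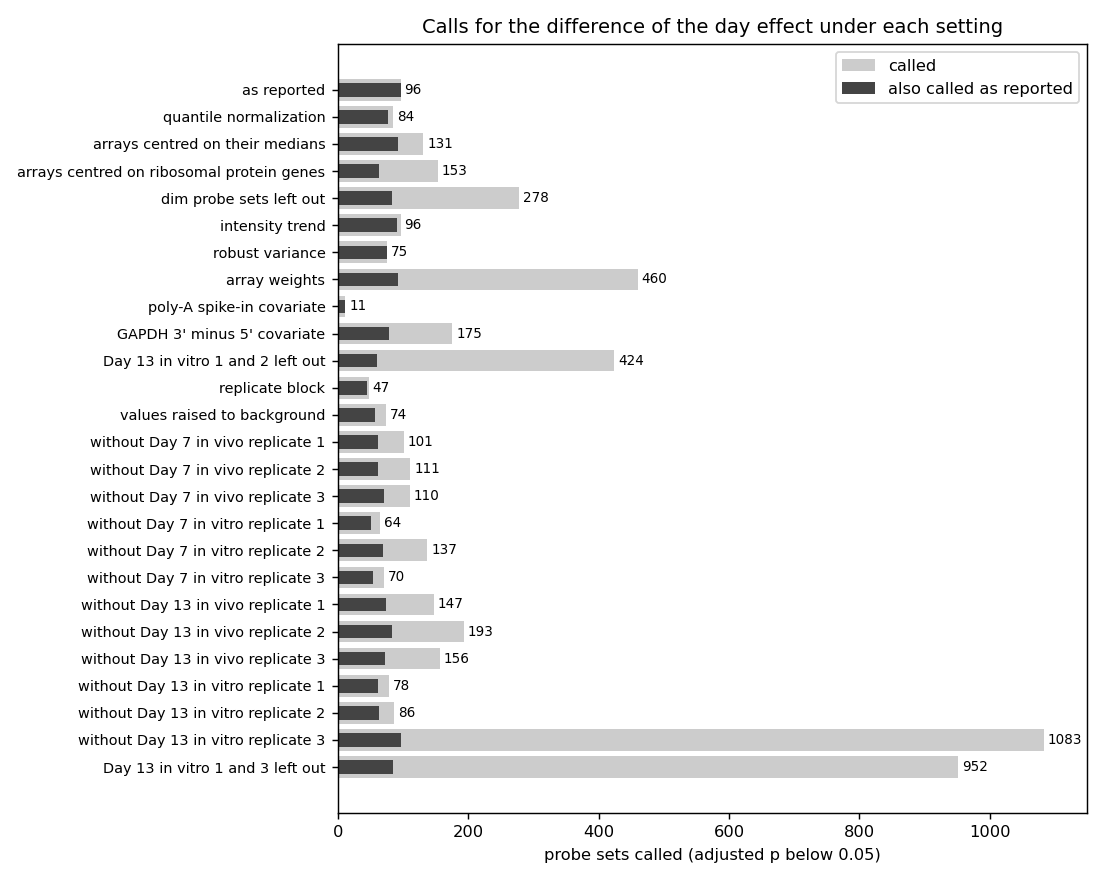
Number of probe sets called for the difference of the day effect (grey bars, axis from 0) under each setting, and how many of them were among the 96 called as reported (dark bars). Counts ran from 11 with the poly-A covariate to 1083 without replicate 3 of Day 13 in vitro.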

How the data were processed

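Values were log2 probe set intensities deposited by the authors in 1 table of 12 arrays. Per the submitters' processing notes RMA, GCRMA and limma were used. Their versions and the choice between RMA and GCRMA for the deposited values are not given in the sources used here. The array files are not used here. Gene symbols came from the platform annotation, updated through Entrez identifiers to RefSeq: 13292 of 24016 probe sets carried exactly 1 symbol, 86 several and 10638 none. Each of 9155 symbols was represented by its brightest probe set.

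A model with 4 group means was fitted in R 4.3.3 with limma 3.58.1 (lmFit, eBayes without trend, 0.379 prior and 8 residual degrees of freedom), and p-values were adjusted over 24016 probe sets. The script was tested on simulated data, where it missed many of the added differences at 3 arrays per group. A list without calls thus does not show that its genes did not differ. Errors of differences are SE, and errors of levels are SD over 3 arrays. The number of arrays limits the precision. Background was the 99th percentile of 48 control probe sets matching no added RNA, since the control set planned for it held too few probe sets. Groups wholly at background were set to it for gaps, courses and folds given as "at least", while the adjusted p beside them comes from the values as deposited. Values at background can vary very little, which lowers the pooled spread, so that such an adjusted p can be too small. Tables were handled in Python 3.11.15 with pandas 2.3.3.

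Named genes were called genes with 1 symbol, no placeholder name and a group above background on all its arrays: the 10 largest differences in each direction and the 5 largest in each direction per course, with up to 4 members of each described list with the smallest adjusted p, and a set of embryo genes. The genes, lists and rules were chosen with earlier results of these data known, and genes named outside the rule are marked. Alternatives were other normalizations, filters and variance models, spike-in and GAPDH 3' minus 5' covariates, a replicate block, and arrays left out.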

Additional observations from a re-analysis of the deposited data

Results flagged for a closer look

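Each of the following genes was picked out because the test of the difference between the day effects of the 2 origins passed (limma, adjusted p below 0.05). Of 33 genes, 17 kept the call without every single array. Below 0 these were BEX4 (-8.90), CD48 (-6.21), ADH6 (-5.83), LOC767968 (-5.81), DKK3 (-5.51), ANXA13 (-4.47), TKTL1 (-4.21), EGFLAM (-3.24), MAEL (-3.19), PHC1 (-2.90) and DLK1 (-0.33, all arrays at background). Above 0 they were CFI (5.26), SLC12A2 (3.26), AASS (2.20), OSR2 (1.96), DHX32 (1.54) and ABHD6 (1.35).

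The other 16 lost the call without at least 1 array. Below 0 these were BEX3 (-7.48), TRIB2 (-5.41), TIMP2 (-5.02), CYP51A1 (-4.67), FMR1NB (-3.83), NOS2 (-3.82), RASSF5 (-3.05), GSTM3 (-2.83), FDFT1 (-2.65), HMGCS1 (-2.64), VBP1 (-0.88) and PRDX4 (-0.85). Above 0 they were TMEM38B (3.32), TMEM106C (2.58), MARS2 (2.49) and CD69 (2.36).

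With the poly-A spike-in level as a covariate 4 of the 33 stayed called: CD48 (-6.15, adjusted p = 0.0243), ADH6 (-5.78, 0.0197), CD69 (1.63, 0.0243) and EGFLAM (-3.23, 0.00759). With values raised to background 22 stayed called, and those lost were TMEM38B, TMEM106C, CD69, OSR2, RASSF5, FMR1NB, FDFT1, HMGCS1, PRDX4, GSTM3 and DLK1. Fits that keep 1 Day 13 in vitro array assume that it varies like the other groups, so that their calls say nothing about stability: 22 were called without replicates 1 and 2 and 30 without replicates 1 and 3, an alternative chosen after seeing the data.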

How the results depend on the processing

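With all arrays 96 probe sets were called, 60 diverged, 19 converged, 9 crossed, and 14 list members were called. In the same order the counts were 153, 99, 31, 23 and 23 with ribosomal centring, 278, 176, 54, 48 and 42 without dim probe sets, 460, 296, 89, 54 and 54 with array weights (whose estimation stopped before its tolerance was reached), 11, 8, 2, 0 and 2 with the poly-A covariate, and 952, 597, 34, 26 and 42 when replicates 1 and 3 of Day 13 in vitro were left out. With the GAPDH covariate 175 were called, 55 converged and 29 crossed. Without Day 13 in vitro replicates 1 and 2, 424 were called, 141 diverged and 4 crossed. Median centring gave 34 converged and 26 list members, robust variance 8 list members, values raised to background 9, and the mean of a gene's probe sets 44. A threshold of 0.01 gave 39 calls and 0.1 gave 229. Crossing thresholds of 0.5 and 2 gave 18 and 2 crossed. Leaving out 1 array gave 64 to 1083 called, 29 to 892 diverged, 12 to 59 converged, 4 to 62 crossed and 5 to 79 list members. Except where an alternative's construction shows it (fewer tested, another threshold), the cause was not tested.

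Same-numbered arrays correlated above 0.1 in 3 of 18 pairs once group means were removed. Their median r was -0.06, with a range from -0.647 to 0.425. With 3 arrays per group these correlations cannot show whether same-numbered arrays shared a batch or donors. With a replicate block 47 were called, 25 diverged, 12 converged, 5 crossed, and 6 list members were called.

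The difference of distances between origins, 0.401, ran from 0.333 to 0.58 without 1 array and was -0.0736 without Day 13 in vitro replicates 1 and 2. Of 824 single-gene values 596 kept sign and call, 227 lost the call, and 1 turned its sign, DLK1 at 0.118 (adjusted p = 0.784) with ribosomal centring.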
